A study of Homo sapiens with 30 samples.

Results

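The genes described here are the cytosolic and mitochondrial chaperones, the proteins that fold, hold and refold other proteins, together with their helpers and the heat shock factors that drive their transcription. A list of 48 genes set the membership, and a probe set counted as a member where the platform annotation gave it a single symbol from that list. Of the 48 genes, 45 had such a probe set, of 11963 genes so annotated on the array, with 77 probe sets in all among 22283. TCP1, the alpha subunit of the CCT ring, was present only in probe sets shared with SNORA29, and no probe set was matched to AHSA1 or HSF2 here. A filter on mean signal, which kept the brighter 60 percent of probe sets, left 70 member probe sets of 43 genes to be tested among 13331 tested in all. The 7 below it belonged to HSPB1, DNAJB4, FKBP5, DNAJC6, DNAJB5, STIP1 and HSF1, and of these genes HSPB1 and FKBP5 had no other probe set.

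The series measured total RNA of 2 human lymphoblastoid lines, GM15036 and GM15510, on Affymetrix 3' expression arrays after caesium-137 irradiation at 1, 2.5, 5, 7.5 or 10 cGy, with 3 arrays at each dose of each line and 30 arrays in all. Lymphoblastoid lines are B cells that Epstein-Barr virus has made immortal, and here they grew in suspension with serum. There was no unirradiated group, so each dose was set against 1 cGy of the same line, and the 4 comparisons of a line share those 3 arrays. Doses are in cGy on the sample labels and, with the same figures, in Gy in the series description. How long after irradiation the cells were harvested is not stated. No label ties the 3 arrays of a dose to separate cultures, and p-values therefore reflect only the spread between arrays, which may be technical. RNA was amplified by T7 transcription before hybridization. Each line is a single line, so a difference between lines is not a difference between kinds of donor.

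Chaperones of the HSP70 class bind unfolded stretches of protein in an ATP cycle: J proteins (HSP40) deliver the client and start hydrolysis, and exchange factors such as HSPH1 and the BAG proteins release it. HSP90 acts later, on kinases and hormone receptors among others, with cochaperones that load it (STIP1, CDC37), slow it (PTGES3) or modulate it (FKBP4, FKBP5). The CCT ring folds actin and tubulin in the cytosol, and HSPD1 with its lid HSPE1 folds proteins inside mitochondria. HSF1 switches many of these genes on under heat and other protein stress by binding heat shock elements, inverted repeats of GAA units in their promoters.

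Promoter windows of 300 bases, 250 before and 50 after the annotated start, were read from the RefSeq table for GRCh38.p14, which held 42 of the 48 genes. A strict element of 3 alternating units was searched on both strands, that is GAA, any 2 bases, TTC, any 2 bases and GAA, or its reverse complement, which starts and ends with TTC. It was found in 3 of the 42 member windows, or 7.14%, and in 133 of 27305 windows in the table, or 0.487%. The 3 windows are shown because they carry the letters the heat shock factors are known to bind, with the element in capitals; a match is a description of the letters, and its absence elsewhere says only that these letters are not in that window. The HSPA6 window was chr1:161524290-161524589 on the plus strand, with the element starting at position -74 relative to the gene start. The DNAJB6 window was chr7:157336754-157337053 on the plus strand, with the element at -131. The DNAJA1 window was chr9:33025023-33025322 on the plus strand, with the element 3 bases after the start.
HSPA6: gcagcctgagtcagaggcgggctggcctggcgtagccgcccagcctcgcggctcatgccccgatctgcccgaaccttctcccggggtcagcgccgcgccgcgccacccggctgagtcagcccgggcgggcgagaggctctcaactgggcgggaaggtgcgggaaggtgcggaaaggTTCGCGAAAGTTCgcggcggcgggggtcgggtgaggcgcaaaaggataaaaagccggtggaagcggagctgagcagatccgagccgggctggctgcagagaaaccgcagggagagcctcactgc
DNAJB6: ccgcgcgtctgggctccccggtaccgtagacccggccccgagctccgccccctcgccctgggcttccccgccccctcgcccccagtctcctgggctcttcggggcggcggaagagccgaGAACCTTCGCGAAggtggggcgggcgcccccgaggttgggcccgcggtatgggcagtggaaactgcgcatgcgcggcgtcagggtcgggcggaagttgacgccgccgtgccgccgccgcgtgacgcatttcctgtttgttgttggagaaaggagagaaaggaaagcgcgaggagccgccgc
DNAJA1: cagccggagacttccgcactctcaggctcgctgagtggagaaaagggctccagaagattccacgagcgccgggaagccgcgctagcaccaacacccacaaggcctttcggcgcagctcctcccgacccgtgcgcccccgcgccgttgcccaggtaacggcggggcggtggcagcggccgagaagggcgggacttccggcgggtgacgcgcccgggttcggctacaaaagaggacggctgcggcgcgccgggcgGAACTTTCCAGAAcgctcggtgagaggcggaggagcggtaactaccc

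HSPD1 and HSPE1 stand head to head on chromosome 2, with starts 105 bases apart, so that 204 bases belong to both windows. The HSPE1 window, chr2:197500129-197500428 on the plus strand, is shown with those shared bases in capitals, since the signals of the 2 genes are compared further on.
HSPE1: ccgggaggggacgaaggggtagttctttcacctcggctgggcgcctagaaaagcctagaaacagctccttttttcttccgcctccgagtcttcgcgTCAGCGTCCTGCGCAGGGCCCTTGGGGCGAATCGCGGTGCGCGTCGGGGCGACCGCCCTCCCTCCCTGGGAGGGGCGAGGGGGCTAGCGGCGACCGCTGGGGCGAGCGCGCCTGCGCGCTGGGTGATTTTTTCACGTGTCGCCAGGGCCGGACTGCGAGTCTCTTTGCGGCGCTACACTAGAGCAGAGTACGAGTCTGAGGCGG

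The deposited MAS5 signals differed in overall brightness, with trimmed means from 14.1 to 112, and each array was therefore scaled to a trimmed mean of 50.9. All values below are scaled signals on that linear scale, and changes are differences of mean log2(signal + 4), which understate the change of dim probe sets. Brightness before scaling moved with dose: it was 22.1 ± 10.4 on the 10 cGy arrays of GM15036 against 69.6 ± 10.2 at 1 cGy, and 18.7 ± 4.48 on the 2.5 cGy arrays of GM15510 against 69.4 ± 10.5 at 1 cGy (SD, n = 3 each). The ratio of 3' to 5' signal of ACTB, a measure of RNA integrity, averaged 4.22 ± 0.176 on the log2 scale at 1 cGy in GM15036 and between 4.80 and 5.18 at its higher doses. In GM15510 it was 3.58 ± 0.508, 4.12 ± 0.509, 4.58 ± 1.18, 3.59 ± 0.335 and 4.94 ± 0.111 at 1, 2.5, 5, 7.5 and 10 cGy, so that it stood farthest from 1 cGy at 10 cGy, on arrays with a brightness of 89.1 ± 23.6. The same ratio of GAPDH averaged 2.45 to 2.80 at the higher doses against 2.49 at 1 cGy in GM15036, and 2.25 to 2.43 against 2.45 in GM15510, lowest at 2.5 cGy. The part of RNA integrity in the calls was not tested. Results were therefore recomputed under other scalings, with brightness as a covariate and without the 5 dimmest arrays, namely 10 cGy arrays a and b of GM15036, 2.5 cGy arrays 2 and 3 of GM15510 and 5 cGy array 1 of GM15510; the part of brightness in a result was otherwise not tested. Without the 5 dimmest arrays, 10 cGy in GM15036 and 2.5 cGy in GM15510 kept 1 array each. A call kept or lost at those doses under that setting rests on 1 array. It cannot separate brightness from the smaller number of arrays. The losses named with each gene leave out a fit with the replicate label as a block, whose 6 lost calls are listed with the processing. Arrays of a group correlated with r from 0.901 to 0.972 over the tested probe sets, as a description. Of 9 B cell markers, 8 had a probe set and all 8 were tested, among them MS4A1 and PAX5, with a median summed signal of 2529 in GM15036 and 2396 in GM15510. The summed medians of markers of T cells, NK cells, monocytes, erythroid cells and fibroblasts lay between 17.1 and 56.6.

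At 10 cGy, GM15036 had lower signal than at 1 cGy for 4 CCT ring subunits, HSP90AB1, HSPH1 and the p23 cochaperone PTGES3, and higher signal for DNAJC2 and HSPA6. For HSP90AB1, HSPH1 and CCT2 this was on 1 probe set each, and their other probe sets did not pass there. In GM15510, HSP90AA1 was higher than at 1 cGy at all 4 higher doses on 1 of its probe sets. HSP90AB1 was lower at 3 doses on 200064_at, and DNAJA1 at 3 on 200881_s_at. The other probe sets of HSP90AB1 and DNAJA1 passed at only 1 of these doses each. These directions are those found with trimmed-mean scaling, the main setting. Those of DNAJC2, HSPA6 and HSP90AA1 turned in some comparisons under median centring, as given with each gene. With brightness as a covariate, 23 of all 51 calls against 1 cGy were kept. At 10 cGy in GM15036 that fit lost the calls of CCT2, CCT5, CCT7, PTGES3, DNAJC2 and HSPA6. It kept those of CCT4, HSPH1 and HSP90AB1. In bulk RNA, fewer cells making a transcript and less of it per cell cannot be told apart. Tests were made with limma over all tested probe sets, with Benjamini-Hochberg adjustment and an adjusted p of 0.05 as threshold. Among the 5 doses of GM15036, 20 of the 70 member probe sets differed by the F test, or 28.6%, beside 16.2 percent of all tested probe sets. In GM15510 the same test passed for 28 members, or 40%, beside 21 percent of all. The 13 probe sets that passed in both lines, from 11 genes, made up 65% of the GM15036 calls and 46.4% of the GM15510 calls. They were 18.6% of the members, beside 8.15 percent of all tested probe sets that passed in both lines, which made up 50.5% of all GM15036 calls and 38.9% of all GM15510 calls.

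By dose, no member passed at 2.5 cGy in GM15036, where 0.548 percent of all probe sets passed by limma; 4 members had an unadjusted p under 0.05, beside 9.47 percent of all. None passed at 5 cGy in that line, where 0.143 percent of all passed by limma; 7 members had an unadjusted p under 0.05, beside 7.97 percent of all. At 7.5 cGy 3 members passed, all lower, or 4.29% beside 3.22 percent of all, of which 1.27 percent were higher and 1.95 percent lower. At 10 cGy 16 passed, 3 higher and 13 lower, which is 22.9% beside 11.7 percent of all, split into 4.39 percent higher and 7.35 percent lower. The median log2 change of the 70 members at 10 cGy was -0.098, and that of all tested probe sets 0.030.

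In GM15510, 12 members passed at 2.5 cGy, 5 higher and 7 lower, or 17.1% beside 9.49 percent of all probe sets, with 3.92 percent higher and 5.57 percent lower. At 5 cGy 9 passed, 2 higher and 7 lower, or 12.9% beside 4.19 percent of all, with 2.08 percent higher and 2.12 percent lower. At 7.5 cGy 4 passed, 2 in each direction, or 5.71% beside 1.79 percent of all, with 1.04 percent higher and 0.743 percent lower. At 10 cGy 7 passed, 2 higher and 5 lower, or 10% beside 5.91 percent of all, with 3.09 percent higher and 2.82 percent lower. Several of these calls came from probe sets of the same gene, and both higher calls at 7.5 cGy were of HSP90AA1. With a single probe set per gene, 6, 4, 1 and 4 of 43 genes passed at 2.5, 5, 7.5 and 10 cGy. Counted by any probe set of a gene, 9, 7, 3 and 7 genes passed. The same share over all genes of the array was not computed. The members' median log2 change stayed between -0.039 and 0.041 at the 4 doses of GM15510. Across both lines, 28 probe sets of 21 genes passed in at least 1 of the 8 comparisons, giving 51 calls; these were 40% of the members, beside 23.8 percent of all tested probe sets. The arrays of the higher dose overlapped those at 1 cGy in 4 of these calls, or 7.84%, beside 4.05% of all 4936 calls. They were DNAJA1 200880_at at 7.5 cGy and DNAJC7 at 10 cGy in GM15036, and DNAJC9 213092_x_at at 2.5 cGy and HSP90AA1 214328_s_at at 5 cGy in GM15510.

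The split between higher and lower calls depended on how the arrays were scaled. Splits over all tested probe sets under the other scalings are not given here. Centring the scaled log2 values on each array's median gave 1 higher and 26 lower calls at 10 cGy in GM15036, and 2 higher and 20 lower at 2.5 cGy in GM15510. Median centring of the unscaled log2 values gave 1 higher and 39 lower at 10 cGy in GM15036, and no higher and 46 lower at 2.5 cGy in GM15510. Under that second centring the median change of all tested probe sets was itself -0.38 and -0.50 in these comparisons, against 0.030 and -0.011 with trimmed-mean scaling. At 5 cGy in GM15510 the splits were 0 and 10 under the first centring and 0 and 19 under the second, with a median of all probe sets of -0.16 and -0.29. Quantile normalization gave 3 higher and 8 lower at 2.5 cGy and 0 and 1 at 7.5 cGy in GM15510, where both centrings left at most 1 call at 7.5 cGy. At 10 cGy in that line centring after scaling gave 1 higher and 4 lower, and median centring none of either.

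**Figure D1:**
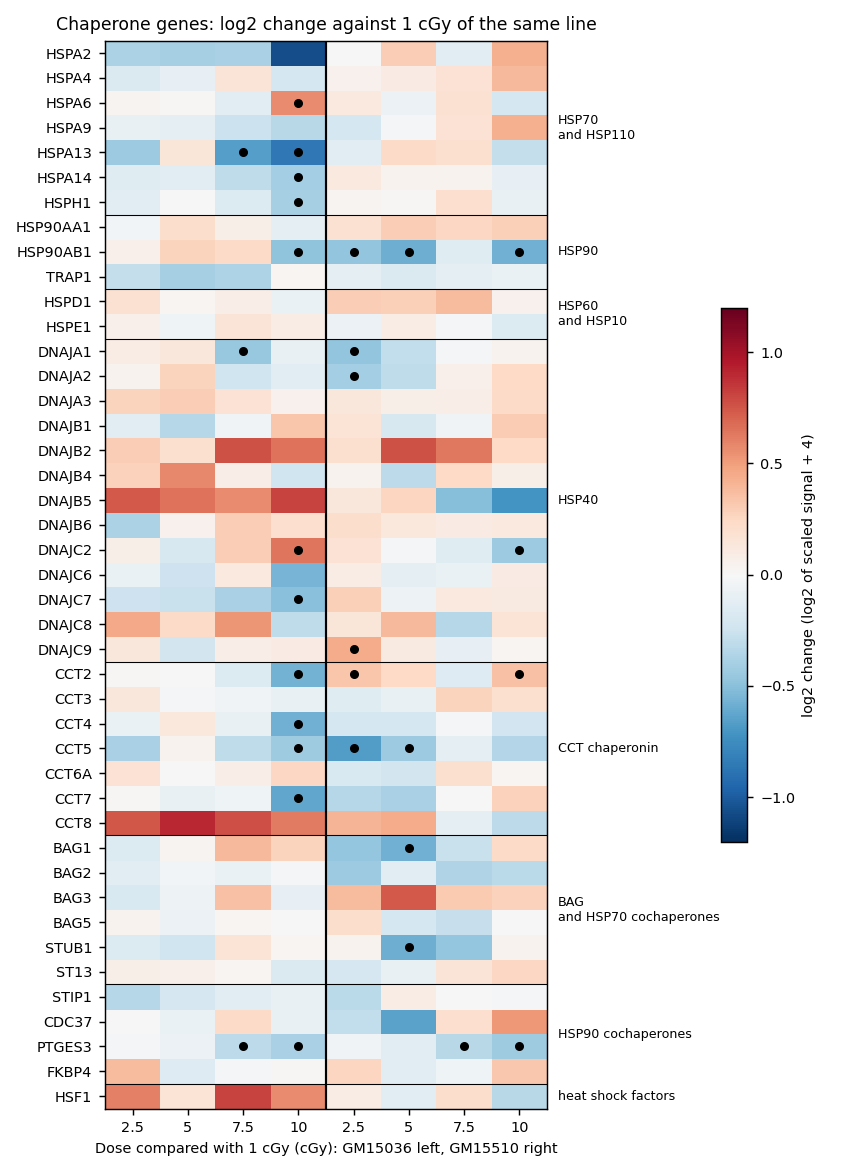
Log2 change against 1 cGy of the same line (colour scale) for 43 chaperone genes, a single probe set per gene, in rows grouped by role, with the 4 higher doses of GM15036 in the left columns and those of GM15510 in the right. Probe sets of the _s_at and _x_at types are shown only for lack of others. HSP90AA1 is therefore drawn by 211969_at, HSPA4 by 208814_at, DNAJA1 by 200880_at and HSPA13 by 202557_at. HSPD1 is drawn by 200807_s_at and ST13 by 207040_s_at, their brightest probe sets. For every gene, calls on probe sets that are not drawn carry no dot. Black dots mark changes past an adjusted p of 0.05; 12 of them stand in the 10 cGy column of GM15036, 10 of those for lower signal.

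Among HSP70 and HSP110 members, 6 of 15 probe sets passed at 10 cGy in GM15036, 4 lower and 2 higher, or 40% beside 11.7 percent of all probe sets. In GM15510 1 passed at 10 cGy, or 6.67% beside 5.91 percent of all, a share near that of all probe sets. HSPA13, an HSP70-like ATPase found in microsomes and so not cytosolic, gave 88.5, 92.9 and 76.0 on the 7.5 cGy arrays of GM15036 and 78.7, 65.0 and 78.3 on the 10 cGy arrays, against 121, 159 and 134 at 1 cGy (202557_at). Both doses lay wholly below 1 cGy, as did 2.5 cGy, while the 5 cGy arrays, at 154, 168 and 134, overlapped it. HSPA13 fell at 7.5 cGy (log2 change -0.66, SE 0.142, adjusted p = 0.00589) and at 10 cGy (log2 change -0.86, SE 0.142, adjusted p = 8.18e-05). Its second probe set, 202558_s_at, averaged 38.7 ± 2.56 at 10 cGy against 54.3 ± 2.79 at 1 cGy in that line without passing (adjusted p = 0.0725), and passed at 10 cGy in GM15510 at 61.2 ± 6.14 against 92.3 ± 14.1 (log2 change -0.56, SE 0.165, adjusted p = 0.0383). The HSPA13 calls of GM15036 were lost with brightness as a covariate, with adjusted p values up to 0.206 at 7.5 cGy and 0.152 at 10 cGy. The 7.5 cGy call was also lost without 1 cGy array b or 7.5 cGy array c (up to 0.0699), and the GM15510 call was lost with quantile normalization, centring after scaling or median centring or without a filter (adjusted p up to 0.254) and without 1 cGy array 1 or 3 or 10 cGy array 1, 2 or 3 (up to 0.186).

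HSPH1, the HSP110 exchange factor of cytosolic HSP70, gave 501, 422 and 472 at 10 cGy in GM15036, against 630.2, 613 and 596 at 1 cGy, with no overlap (206976_s_at; log2 change -0.40, SE 0.0858, adjusted p = 0.00169). The other HSPH1 probe set, 208744_x_at, did not pass in that comparison. The call of 206976_s_at passed under all 10 alternatives and without each of the 30 arrays. In GM15510 the same probe set ran from 957 to 1287 over all doses, and its log2 change at 10 cGy was -0.09 (adjusted p = 0.72); the difference in dose pattern between the lines did not pass (adjusted p = 0.0581). HSPA4, another exchange factor of the HSP110 type, averaged 51.5 ± 6.96 at 10 cGy against 76.9 ± 8.53 at 1 cGy in GM15036 (211015_s_at; log2 change -0.54, SE 0.16, adjusted p = 0.0217). Its other 3 probe sets did not pass in that comparison, and the call was lost with brightness as a covariate (adjusted p up to 0.239) and without 1 cGy array a or b or 10 cGy array b or c (up to 0.112).

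HSPA14, which pairs with DNAJC2 on the ribosome, averaged 158 ± 13.9 at 10 cGy against 210.4 ± 16.6 at 1 cGy in GM15036 (log2 change -0.41, SE 0.125, adjusted p = 0.0279). The HSPA14 call was lost with quantile normalization or brightness as a covariate or without the 5 dimmest arrays (adjusted p up to 0.272) and without 1 cGy array a or b or 10 cGy array a (up to 0.133). HSPA6, the strictly heat-induced HSP70 whose promoter is shown above, gave 124, 117 and 124 at 10 cGy against 68.9, 69.3 and 108 at 1 cGy in GM15036 (213418_at; log2 change 0.57, SE 0.184, adjusted p = 0.0378). Its second probe set, 117_at, gave 51.6, 29.2 and 30.3 against 20.1, 10.2 and 23.0 (log2 change 0.93, SE 0.303, adjusted p = 0.0417). HSPA6 has a near-identical copy, HSPA7, and the probes may read both. Under median centring the 213418_at change turned to -0.0042. The call of 213418_at was lost with centring after scaling, median centring or brightness as a covariate or without a filter or the 5 dimmest arrays (adjusted p up to 0.99) and without 1 cGy array a or b or 10 cGy array a, b or c (up to 0.178). The call of 117_at was lost with quantile normalization, centring after scaling, median centring or brightness as a covariate or without a filter or the 5 dimmest arrays (adjusted p up to 0.656) and without 1 cGy array a or b or 10 cGy array a (up to 0.264). HSPA9, the mitochondrial HSP70, passed at no single dose; its probe set 200690_at differed among the doses of GM15510 (adjusted p of the F test = 0.0187) with signals of 107 to 186. HSPA2, the testis-enriched HSP70, was dim at 0.74 to 29.2 in GM15036 and 3.44 to 22.7 in GM15510 and passed nowhere.

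The 2 cytosolic HSP90 genes parted in GM15510. HSP90AA1, the stress-inducible form, gave 1087, 1229 and 1067 at 1 cGy and 1788, 1734 and 1867 at 2.5 cGy (210211_s_at). Its arrays read 1743, 1386 and 1284 at 5 cGy, 1626, 1306 and 1489 at 7.5 cGy and 1381, 1670.3 and 1572 at 10 cGy. Every array above 1 cGy exceeded all 3 at 1 cGy. The change against 1 cGy was 0.67 at 2.5 cGy (SE 0.098, adjusted p = 2.75e-05), 0.37 at 5 cGy (0.0221), 0.38 at 7.5 cGy (0.0338) and 0.45 at 10 cGy (0.00337).

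Another probe set of HSP90AA1, 214328_s_at, averaged 5726 ± 237 at 2.5 cGy and 5260.0 ± 1163 at 5 cGy, against 3681 ± 419 at 1 cGy, and passed at both doses (log2 0.64, adjusted p = 6.01e-04, and 0.50, 0.0122). At 10 cGy it averaged 3796 ± 591 and did not pass (0.952). Probe set 211968_s_at passed at 7.5 cGy only (log2 change 0.39, SE 0.099, adjusted p = 0.0332), and 211969_at ranged over 1415 to 1888 and did not pass at any dose. The direction of HSP90AA1 depended on scaling: under median centring the 2.5 cGy change was -0.10 for 210211_s_at and -0.14 for 214328_s_at, and the 5 cGy change of 210211_s_at -0.047. The 2.5 cGy call of 210211_s_at was lost with median centring or brightness as a covariate (adjusted p up to 0.591). Its 5 cGy call was lost with centring after scaling, median centring or brightness as a covariate or without the 5 dimmest arrays (adjusted p up to 0.855) and without 1 cGy array 1 or 3 or 5 cGy array 1 (up to 0.212). Its 7.5 cGy call was lost with quantile normalization, centring after scaling or median centring or without a filter (adjusted p up to 0.506) and without 1 cGy array 1 or 3 or 7.5 cGy array 1 or 3 (up to 0.219), and its 10 cGy call with median centring (adjusted p up to 0.061). For 214328_s_at the 2.5 cGy call was lost with quantile normalization, median centring or brightness as a covariate (adjusted p up to 0.805). Its 5 cGy call was lost with quantile normalization, centring after scaling, median centring or brightness as a covariate or without the 5 dimmest arrays (adjusted p up to 0.752) and without 1 cGy array 1 or 3 or 5 cGy array 1 or 2b (up to 0.137). The 211968_s_at call was lost with quantile normalization, centring after scaling or median centring or without a filter (adjusted p up to 0.574) and without 1 cGy array 1 or 3 or 7.5 cGy array 1, 2 or 3 (up to 0.215).

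HSP90AB1, the constitutive form, moved the other way in that line. Its arrays gave 996, 1235 and 1260.3 at 1 cGy and 859, 799 and 839.9 at 2.5 cGy (200064_at). They gave 886, 771 and 663 at 5 cGy, 1192, 982 and 969 at 7.5 cGy and 745, 779 and 798 at 10 cGy. The 2.5, 5 and 10 cGy arrays lay wholly below 1 cGy and the 7.5 cGy arrays overlapped it. HSP90AB1 fell at 2.5 cGy (log2 change -0.47, SE 0.108, adjusted p = 0.004), at 5 cGy (log2 change -0.59, SE 0.108, adjusted p = 8.13e-04) and at 10 cGy (log2 change -0.58, SE 0.108, adjusted p = 5.98e-04). A second probe set, 214359_s_at, gave 42.5, 44.5 and 28.9 at 5 cGy against 85.4, 88.0 and 91.7 at 1 cGy and fell there too (log2 change -1.14, SE 0.216, adjusted p = 0.00129). That probe set passed at no other dose of the line. Both 5 cGy calls passed under all 10 alternatives and without each array. The 2.5 cGy call was lost without the 5 dimmest arrays, a fit that left 1 array at that dose. The 10 cGy call was lost with median centring (adjusted p up to 0.0907).

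In GM15036 HSP90AB1 fell at 10 cGy on 200064_at, while its other probe set, 214359_s_at, did not pass there. HSP90AA1 fell at 10 cGy on 1 of its 4 probe sets. HSP90AB1 gave 481, 425 and 499.6 at 10 cGy against 710.5, 671 and 592 at 1 cGy (log2 change -0.49, SE 0.108, adjusted p = 0.00217), and the groups did not overlap. At 2.5, 5 and 7.5 cGy its means were 687, 792 and 774, and none of these differed from 1 cGy by the test. HSP90AA1 gave 1073, 993 and 920.1 at 10 cGy against 1186, 1253 and 1246 at 1 cGy (210211_s_at; log2 change -0.30, SE 0.0978, adjusted p = 0.0372), while its 3 other probe sets had changes from -0.14 to 0.14 and did not pass, so its direction there is uncertain. The HSP90AB1 call was lost without the 5 dimmest arrays, a fit that left 1 array at 10 cGy. The HSP90AA1 call was lost without a filter (up to 0.0652) and without any of the 1 cGy arrays or 10 cGy array b or c (up to 0.145). TRAP1, the mitochondrial HSP90, ran over 139 to 352 in GM15036 and 119 to 170.0 in GM15510 and passed in no dose comparison.

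Because scaling cancels within an array, the log2 ratio of HSP90AA1 (210211_s_at) to HSP90AB1 (200064_at) was also taken array by array; the pair was chosen after the values above had been seen, so no test was made. Each probe set was the one of its gene with the smallest p of the dose F tests, so a separation from 1 cGy was partly set by that choice. Other probe sets of these genes were not tried. Only the change of the ratio between arrays can be read, not its size, since 2 probe sets bind with different strength. In GM15510 the ratio was 0.126, -0.0065 and -0.240 at 1 cGy and averaged 1.11 ± 0.0478 at 2.5 cGy and 0.925 ± 0.0694 at 5 cGy (SD, n = 3 each). It averaged 0.493 ± 0.112 at 7.5 cGy and 0.989 ± 0.106 at 10 cGy. All 12 arrays above 1 cGy exceeded the 3 at 1 cGy. In GM15036 it averaged 0.905 ± 0.167 at 1 cGy, 1.02 ± 0.0837 at 2.5 cGy and 0.825 ± 0.0725 at 5 cGy. Its average was 0.573 ± 0.193 at 7.5 cGy and 1.09 ± 0.182 at 10 cGy. There the arrays of each of the 4 higher doses overlapped those at 1 cGy.

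**Figure D2:**
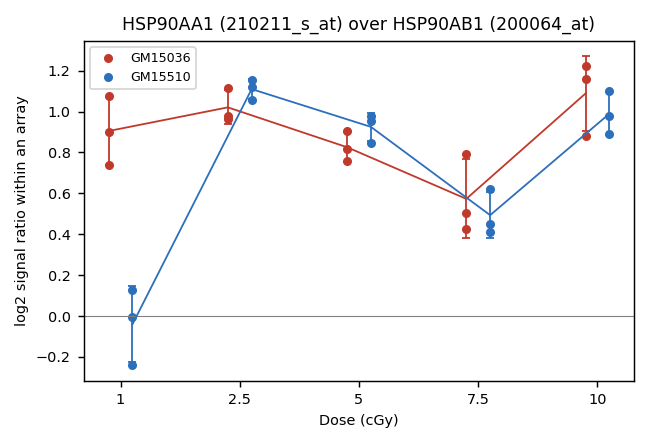
Log2 ratio of HSP90AA1 to HSP90AB1 signal within each array (vertical axis) at each dose in cGy (horizontal axis), with GM15036 in red and GM15510 in blue; points are single arrays, lines join means and bars are SD of 3 arrays. The 1 cGy arrays of GM15510 lie at or below 0.126, under every other array in the plot.

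HSPD1, the mitochondrial HSP60, gave 874, 756 and 808 at 2.5 cGy in GM15510 against 531, 582 and 551 at 1 cGy, with no overlap (200806_s_at; log2 change 0.55, SE 0.105, adjusted p = 7.95e-04). Its other probe set, 200807_s_at, averaged 3865 ± 92.1 against 3159 ± 231 and did not pass (log2 change 0.29, adjusted p = 0.0754). HSPE1, its lid, whose window overlaps that of HSPD1, averaged 197 ± 14.5 at 2.5 cGy against 208 ± 37.5 at 1 cGy (log2 change -0.07, adjusted p = 0.83). Over all doses HSPE1 kept to 146 to 236 in GM15036 and 177 to 253 in GM15510 and passed in no dose comparison. Averaged over the doses, HSPE1 was lower in GM15036 than in GM15510 by the test of the line difference. The HSPD1 call was lost with centring after scaling, with median centring, where the change was -0.22, and with brightness as a covariate (adjusted p up to 0.302). In GM15036 neither gene passed at any dose.

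Among the 19 tested J protein probe sets, DNAJC2 showed opposite changes in the 2 lines at 10 cGy. DNAJC2 binds the ribosome and helps newly made chains fold. In GM15036 it gave 625, 506 and 525 at 1 cGy and 588, 565 and 578 at 2.5 cGy. The arrays then read 477, 484 and 482 at 5 cGy, 631, 705 and 692 at 7.5 cGy and 816, 880.3 and 889.9 at 10 cGy, so that the 10 cGy arrays stood above all others of the line. In GM15510 it gave 449, 484 and 529.6 at 10 cGy against 596, 740.3 and 643 at 1 cGy, again with no overlap. DNAJC2 rose at 10 cGy in GM15036 (log2 change 0.64, SE 0.108, adjusted p = 9.88e-05) and fell in GM15510 (log2 change -0.43, SE 0.108, adjusted p = 0.0109), and the dose pattern differed between the lines (adjusted p of the interaction F test = 1.00e-06).

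The DNAJC2 rise in GM15036 was lost with brightness as a covariate and with median centring, where its change was -0.0075 (adjusted p up to 0.98). The fall in GM15510 was lost with median centring (0.281) and without 1 cGy array 2 or 10 cGy array 1 (up to 0.105). The interaction passed in 9 of the 10 alternatives and was lost with median centring (0.389). HSPA14, the partner of DNAJC2, had a change of -0.41 at 10 cGy in GM15036 and -0.09 in GM15510.

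DNAJA1, a cytosolic partner of HSP70 whose window carries the element just after its start, passed as lower in both lines. In GM15510 it gave 1145, 1167 and 1119.5 at 1 cGy and 802, 828 and 744 at 2.5 cGy (200881_s_at). It gave 809.5, 874 and 798 at 5 cGy, 1005, 1089 and 974 at 7.5 cGy and 863, 960.2 and 900.1 at 10 cGy. No array above 1 cGy reached those at 1 cGy. DNAJA1 fell at 2.5 cGy (log2 change -0.53, SE 0.0794, adjusted p = 3.89e-05), at 5 cGy (log2 change -0.47, SE 0.0794, adjusted p = 3.33e-04) and at 10 cGy (log2 change -0.33, SE 0.0794, adjusted p = 0.0072). In GM15036 it gave 511, 483 and 434 at 10 cGy against 645, 599.6 and 586 at 1 cGy (log2 change -0.36, SE 0.0794, adjusted p = 0.00222). The 10 cGy call of GM15036 and the 2.5 and 5 cGy calls of GM15510 passed under all 10 alternatives and without each array, while the 10 cGy call of GM15510 was lost with median centring (adjusted p = 0.457) and without 10 cGy array 1 (0.0509).

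The other DNAJA1 probe set, 200880_at, averaged 246 ± 35.4 at 2.5 cGy against 342 ± 13.2 at 1 cGy in GM15510 (log2 change -0.48, SE 0.133, adjusted p = 0.0185), and at 10 cGy, where 200881_s_at fell, its change was 0.04 (0.95). In GM15036 it averaged 160.4 ± 41.2 at 7.5 cGy against 218 ± 16.7 at 1 cGy, with overlapping arrays (log2 change -0.46, SE 0.133, adjusted p = 0.0496). The 2.5 cGy call was lost with brightness as a covariate or without the 5 dimmest arrays (adjusted p up to 0.779) and without 1 cGy array 1 or 2 or 2.5 cGy array 3 (up to 0.12). The 7.5 cGy call was lost with quantile normalization, centring after scaling, a pseudocount of 1, a pseudocount of 16 or brightness as a covariate or without a filter (adjusted p up to 0.484) and in all but 9 of the 30 fits that left out an array (up to 0.308). DNAJA2, its close relative, averaged 104 ± 22.4 at 2.5 cGy against 137 ± 6.54 at 1 cGy in GM15510 (log2 change -0.41, SE 0.131, adjusted p = 0.0424). The DNAJA2 call was lost with quantile normalization or brightness as a covariate or without a filter or the 5 dimmest arrays (adjusted p up to 0.668) and without 1 cGy array 1, 2 or 3 or 2.5 cGy array 2 (up to 0.29).

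DNAJC9, a histone chaperone, gave opposite calls on its 2 probe sets at 2.5 cGy in GM15510. Probe set 213088_s_at averaged 585 ± 86.7 against 425 ± 11.7 (log2 change 0.45, SE 0.111, adjusted p = 0.00844), and 213092_x_at averaged 98.8 ± 27.4 against 139.6 ± 16 (log2 change -0.51, SE 0.158, adjusted p = 0.0369). The direction of DNAJC9 is therefore uncertain, and under median centring 213088_s_at had a change of -0.31. The call of 213088_s_at was lost with centring after scaling or median centring or without the 5 dimmest arrays (adjusted p up to 0.401) and without 2.5 cGy array 3 (up to 0.0741). That of 213092_x_at was lost with quantile normalization or brightness as a covariate or without a filter or the 5 dimmest arrays (adjusted p up to 0.819) and without 1 cGy array 2 or 3 or 2.5 cGy array 2 or 3 (up to 0.182). DNAJC7, which bridges HSP70 and HSP90, averaged 141 ± 46.7 at 10 cGy against 195 ± 16 at 1 cGy in GM15036, with overlapping arrays (log2 change -0.50, SE 0.163, adjusted p = 0.0412). The DNAJC7 call was lost with quantile normalization or brightness as a covariate or without a filter or the 5 dimmest arrays (adjusted p up to 0.996) and without 1 cGy array a, b or c or 10 cGy array a or b (up to 0.272). Without the 5 dimmest arrays, a fit that left 1 array at 10 cGy, its change was -0.0027.

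DNAJB1, the heat-induced partner of HSP70, was dim, with signals of 18.8 to 41.7 in GM15036 and 17.2 to 40.1 in GM15510 on 200666_s_at, and passed in no dose comparison. On 209015_s_at, DNAJB6, whose window carries a heat shock element, ran over 17.3 to 48.9 in GM15036 and 23.6 to 49.5 in GM15510. This probe set passed in no dose comparison either. Further probe sets of DNAJB6, shared with TMEM135, were not used, so the gene was read from 209015_s_at alone. DNAJA3, DNAJB2, DNAJB4, DNAJB5, DNAJC6 and DNAJC8 passed in no comparison with 1 cGy, although the F test passed for 2 of the 3 DNAJC8 probe sets in GM15036 (212491_s_at, adjusted p = 0.028, and 205545_x_at, 0.0378).

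At 10 cGy in GM15036, 4 of the 10 tested probe sets of the CCT ring fell, or 40% beside 7.35 percent of all, those of CCT2, CCT4, CCT5 and CCT7. CCT4 gave 788, 817 and 652 at 1 cGy and 706, 719 and 694 at 2.5 cGy. It gave 812, 848 and 794 at 5 cGy, 655, 755 and 703 at 7.5 cGy and 469, 550.0 and 485 at 10 cGy. The 10 cGy arrays lay below all 12 other arrays of the line (log2 change -0.58, SE 0.0865, adjusted p = 2.21e-05). This was the member with the smallest p of the F test in GM15036 (adjusted p = 4.21e-06), and the 10 cGy call passed under all 10 alternatives and without each array. In GM15510 CCT4 gave 993, 1069 and 1046 at 10 cGy against 1190.4, 1302 and 1154 at 1 cGy, wholly below it, and did not pass (log2 change -0.23, adjusted p = 0.131).

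CCT7 gave 180.3, 213 and 276 at 10 cGy in GM15036 against 353, 330.1 and 338 at 1 cGy (log2 change -0.62, SE 0.12, adjusted p = 5.11e-04). In GM15510 its 10 cGy arrays, at 457, 397 and 409, lay above the 1 cGy arrays, at 335, 359.7 and 347, without passing (0.27, 0.221). The F test passed in GM15510 (adjusted p = 3.63e-04), where the mean was 347 at 1 cGy, then 274 at 2.5 cGy and 266 at 5 cGy. It was 349 at 7.5 cGy and 421 at 10 cGy. The dose pattern of CCT7 differed between the lines (adjusted p = 8.64e-06), and it did so under all 10 alternatives. The 10 cGy fall in GM15036 was lost with brightness as a covariate. It was also lost without the 5 dimmest arrays, a fit that left 1 array at 10 cGy, where its change was -0.30.

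CCT2 gave 479, 469.6 and 450.4 at 10 cGy in GM15036 against 685, 726 and 674 at 1 cGy (201947_s_at; log2 change -0.57, SE 0.103, adjusted p = 2.51e-04). In GM15510 it was higher at 10 cGy, at 921, 915 and 949.8 against 699.7, 746 and 732 at 1 cGy (log2 change 0.35, SE 0.103, adjusted p = 0.034), and at 2.5 cGy, at 950.2, 865 and 927 (log2 change 0.33, SE 0.103, adjusted p = 0.0383). Its interaction test passed (adjusted p = 6.16e-05), also under all 10 alternatives. The fall in GM15036 was lost with brightness as a covariate (adjusted p = 0.0725). The 10 cGy rise in GM15510 was lost with centring after scaling or median centring or without a filter (up to 0.326) and without any single 1 or 10 cGy array of the line (up to 0.128). The 2.5 cGy rise turned to -0.44 under median centring. It was lost with quantile normalization, centring after scaling or brightness as a covariate or without a filter or the 5 dimmest arrays (adjusted p up to 0.78) and without 1 cGy array 1, 2 or 3 or 2.5 cGy array 1 or 3 (up to 0.133). The second probe set of CCT2, 201946_s_at, passed in no dose comparison.

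CCT5 was lower in both lines. It averaged 341 ± 10.6 at 10 cGy against 462 ± 60.3 at 1 cGy in GM15036 (log2 change -0.43, SE 0.127, adjusted p = 0.0223). In GM15510 it averaged 402 ± 40.6 at 2.5 cGy and 473 ± 35.4 at 5 cGy, against 641 ± 58.7 at 1 cGy (log2 change -0.67, SE 0.127, adjusted p = 6.90e-04, and log2 change -0.43, SE 0.127, adjusted p = 0.0442). The call in GM15036 was lost with brightness as a covariate or without the 5 dimmest arrays (adjusted p up to 0.204) and without 1 cGy array a or 10 cGy array a (up to 0.145). The 2.5 cGy call was lost with brightness as a covariate (adjusted p = 0.0823), and the 5 cGy call with brightness as a covariate or without a filter or the 5 dimmest arrays (adjusted p up to 0.179) and in all but 21 of the 30 fits that left out an array (up to 0.194). CCT3 and CCT6A passed at no single dose, with F tests that passed in GM15510 (CCT3 adjusted p = 0.00244, CCT6A 201326_at 0.0369). CCT8 passed at no dose on either probe set: 200873_s_at ran over 1208 to 1625 in GM15036 and 1191 to 1899 in GM15510, while 210436_at, which stands for the gene in the heat map by the rule on probe set types, stayed at 2.22 to 28.0 in GM15036.

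**Figure D3:**
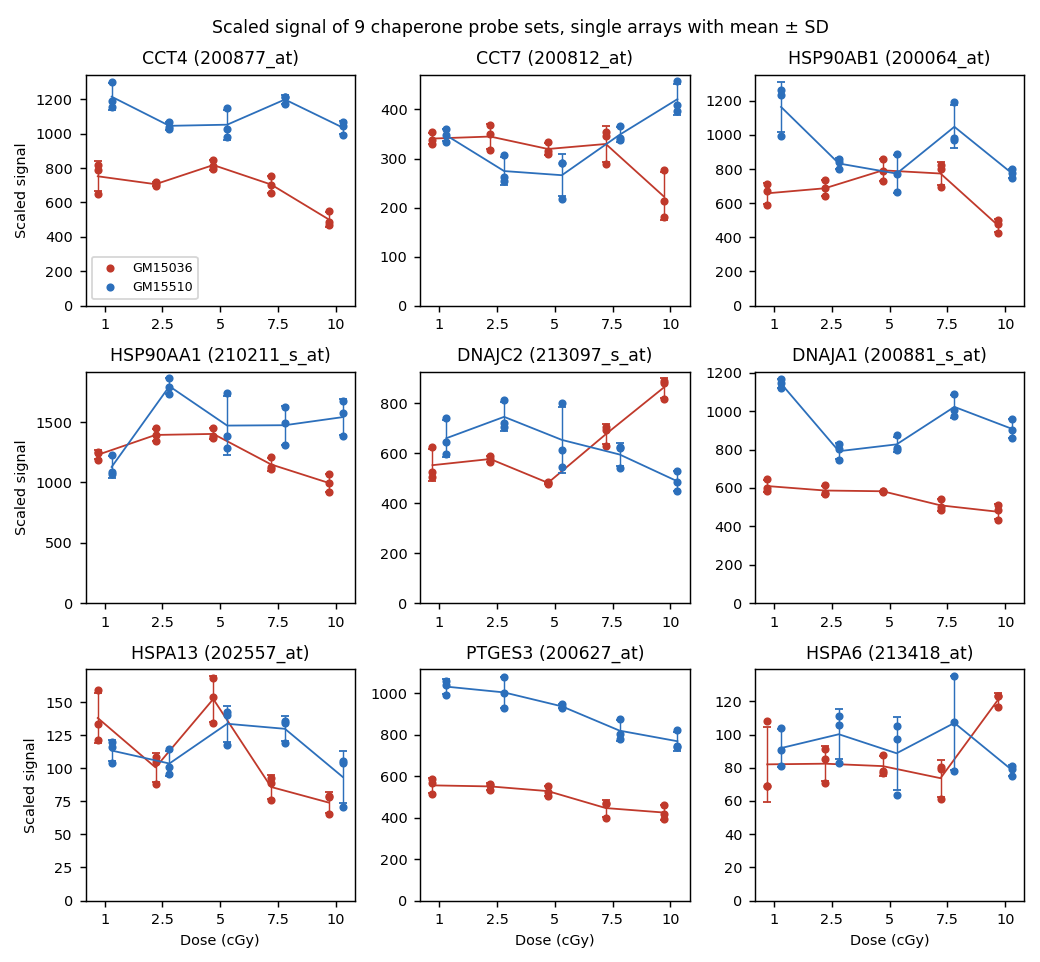
Scaled signal (linear scale from 0) of 9 chaperone probe sets at each dose in cGy, with GM15036 in red and GM15510 in blue; points are single arrays, lines join means and bars are SD of 3 arrays. The 10 cGy arrays of GM15036 are the lowest of that line for CCT4 and HSP90AB1 and the highest for DNAJC2, and the PTGES3 means are lower at each successive dose in both lines. Under median centring the DNAJC2 change at 10 cGy in GM15036 was -0.0075, and that of HSP90AA1 at 2.5 cGy in GM15510 -0.10.

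Among the BAG proteins and other HSP70 helpers, no probe set passed in GM15036 against 1 cGy, and calls in GM15510 were all lower. ST13, which steadies the ADP form of HSP70, had 3 probe sets that disagreed. Probe set 208666_s_at gave 49.8, 57.7 and 54.3 at 1 cGy, 37.8, 29.5 and 33.3 at 2.5 cGy and 22.7, 19.8 and 17.0 at 5 cGy. It gave 29.4, 26.3 and 28.8 at 7.5 cGy and 47.0, 43.6 and 34.6 at 10 cGy, so that all arrays above 1 cGy lay below those at 1 cGy. It fell at 2.5 cGy (log2 change -0.63, SE 0.207, adjusted p = 0.0496), at 5 cGy (log2 change -1.29, SE 0.207, adjusted p = 1.60e-04) and at 7.5 cGy (log2 change -0.85, SE 0.207, adjusted p = 0.0264).

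The ST13 probe set 207040_s_at averaged 736, 640.0, 693, 819.7 and 876 at 1, 2.5, 5, 7.5 and 10 cGy of GM15510. Its arrays gave 618, 644 and 658 at 2.5 cGy and 868, 801 and 958 at 10 cGy, with 711, 762 and 735 at 1 cGy, and neither dose passed, though the F test did (adjusted p = 5.16e-04). Probe set 208667_s_at passed nowhere by dose, and since ST13 has several processed copies in the genome, which copy each probe set reads is uncertain. The 5 cGy call of 208666_s_at passed under all 10 alternatives and without each array. Its 2.5 cGy call was lost with a pseudocount of 1 or brightness as a covariate or without a filter or the 5 dimmest arrays (adjusted p up to 0.286) and in all but 6 of the 30 fits that left out an array (up to 0.15). The 7.5 cGy call was lost with quantile normalization or median centring (adjusted p up to 0.114) and without any single 1 or 7.5 cGy array of the line (up to 0.103).

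BAG1, an exchange factor of HSP70, fell at 5 cGy in GM15510. Probe set 202387_at gave 113, 95.9 and 98.7 at 5 cGy against 149.5, 149 and 164 at 1 cGy, with no overlap (log2 change -0.57, SE 0.153, adjusted p = 0.0244). Probe set 211475_s_at gave 50.3, 37.8 and 43.6 at 7.5 cGy and 78.2, 100.2 and 81.6 at 10 cGy, with 63.0, 56.3 and 66.0 at 1 cGy; it passed the F test (adjusted p = 4.48e-04) and no comparison with 1 cGy. STUB1, the CHIP ubiquitin ligase that marks chaperone clients for degradation, averaged 39.9 ± 7.48 at 5 cGy against 61.1 ± 2.14 at 1 cGy in that line (log2 change -0.58, SE 0.168, adjusted p = 0.0413). The BAG1 call was lost with quantile normalization or brightness as a covariate (adjusted p up to 0.152) and without 1 cGy array 1, 2 or 3 or 5 cGy array 2b or 3 (up to 0.115). The STUB1 call was lost with quantile normalization or brightness as a covariate or without a filter (adjusted p up to 0.0794) and without 1 cGy array 1, 2 or 3 or 5 cGy array 2b or 3 (up to 0.159). BAG2, BAG3 and BAG5 passed in no comparison with 1 cGy, and BAG3, a stress-induced member, was dim at 6.83 to 20.3 in GM15036 and 3.57 to 21.9 in GM15510.

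PTGES3, the p23 protein that holds HSP90 closed on its client, was lower at 7.5 and 10 cGy in both lines. In GM15036 it gave 567, 587 and 515 at 1 cGy and 557, 564 and 532 at 2.5 cGy. Its further arrays gave 524, 554 and 507 at 5 cGy, 472, 468 and 399 at 7.5 cGy and 418, 395 and 463 at 10 cGy. In both lines the arrays at 7.5 and 10 cGy lay wholly below those at 1 cGy. In GM15510 the arrays gave 1043, 1061 and 994 at 1 cGy and 1081, 930.1 and 1003 at 2.5 cGy. They gave 949, 934 and 931 at 5 cGy, 805, 877 and 779 at 7.5 cGy and 742, 744 and 821 at 10 cGy.

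PTGES3 fell at 10 cGy in GM15036 (log2 change -0.39, SE 0.0848, adjusted p = 0.00205) and in GM15510 (log2 change -0.42, SE 0.0848, adjusted p = 0.00132), and at 7.5 cGy in GM15036 (log2 change -0.32, SE 0.0848, adjusted p = 0.0314) and in GM15510 (log2 change -0.33, SE 0.0848, adjusted p = 0.0336). The interaction test gave an adjusted p of 0.991, which does not show that the lines acted alike. The 10 cGy call of GM15036 was lost with brightness as a covariate or without the 5 dimmest arrays (adjusted p up to 0.203), and that of GM15510 with median centring (0.345). The 7.5 cGy call of GM15036 was lost with centring after scaling or brightness as a covariate or without a filter (adjusted p up to 0.214) and without 1 cGy array a or b or 7.5 cGy array b or c (up to 0.219). The 7.5 cGy call of GM15510 was lost with centring after scaling or median centring or without a filter (adjusted p up to 0.481) and without 1 cGy array 1, 2 or 3 or 7.5 cGy array 1 or 3 (up to 0.153). The other HSP90 cochaperones tested, STIP1, CDC37 and FKBP4, passed in no dose comparison, and FKBP5 was listed at 0.50 to 4.08 in GM15036 and 0.30 to 6.4 in GM15510, below the filter.

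HSF1, the master factor of the heat shock response, was dim: its tested probe set, 202344_at, had a lowest, median and highest signal of 3.58, 13.7 and 19.5 in GM15036 and 2.26, 7.39 and 19.1 in GM15510 and passed in no dose comparison. HSPB1, the small heat shock protein HSP27, was below the filter, at 0.94, 2.26 and 12.3 in GM15036 and 0.93, 5.22 and 20 in GM15510. Neither the HSF1 probe set nor those of the heat-induced DNAJB1 and BAG3 passed at any dose, and HSPA6 did so at 10 cGy of GM15036 with the limits given above.

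A further list of 64 genes of the same pathway that are not members, such as prefoldin subunits, other J proteins and other cochaperones, had 50 genes with a probe set and 37 tested. HSPA8, the constitutive cytosolic HSP70, and HSPA1A and HSPA1B had only probe sets that name several genes and were not used. In GM15036, 1 of the 37 passed at 10 cGy, BAG4, an HSP70 exchange factor (log2 change -1.04, adjusted p = 0.0128), and none at the other doses. In GM15510, 3 were lower at 2.5 cGy: BAG6, which guards proteins bound for membranes (-0.64, adjusted p = 0.0152), the prefoldin subunit VBP1 (-0.36, adjusted p = 0.00494) and the HSP90 partner CHORDC1 (-0.50, adjusted p = 0.00494). VBP1 was also lower at 5 cGy (-0.36, adjusted p = 0.00852) and at 10 cGy (-0.35, adjusted p = 0.00703). At 10 cGy the HSP90-binding cyclophilin PPID was lower (-0.57, adjusted p = 0.00916) and the prefoldin subunit PFDN2 higher (0.52, adjusted p = 0.0124). In GM15036 the share that passed at 10 cGy was 2.70%, beside 11.7 percent of all probe sets. In GM15510 it was 8.11% at 2.5 cGy beside 9.49 percent, 2.70% at 5 cGy beside 4.19 percent and 8.11% at 10 cGy beside 5.91 percent.

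Most chaperone probe sets differed in level between the lines, and most of those were lower in GM15036. Averaged over the 5 doses, 43 of the 70 member probe sets differed between GM15036 and GM15510, or 61.4%, beside 47.2 percent of all tested probe sets. Of the 43, 32 were lower in GM15036 and 11 higher, where 20.5 percent of all probe sets were lower and 26.7 percent higher. The median difference of the members, GM15036 minus GM15510, was -0.11 on the log2 scale, beside 0.067 over all probe sets. The sign was the same at all 5 doses for 29 of the 43, or 67.4%, beside 63.4% of the calls over all probe sets. For 9 of the 43 the 15 arrays of one line lay wholly apart from the 15 of the other. Of the 70 members these were 41.4% and 12.9%, beside 29.9 and 3.48 percent of all tested probe sets. Some genes entered these counts with several probe sets. By gene, with a single probe set each, 25 of 43 genes differed between the lines, 16 lower in GM15036 and 9 higher. For this count too, the share over all genes of the array was not computed. The labels give no batch within or between the lines, so line and any batch that went with it cannot be told apart.

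HSPH1 showed the widest gap: 208744_x_at averaged 38.8 ± 8.81 in GM15036 and 91.3 ± 15.8 in GM15510 (SD, n = 15 each), and 206976_s_at 559.6 ± 61.5 in GM15036 and 1098 ± 100.2 in GM15510, with log2 differences of -1.17 and -0.97 (adjusted p = 1.54e-12 and 3.08e-20). On neither probe set did the lines overlap. PTGES3 averaged 501 ± 62.8 in GM15036 and 913 ± 114 in GM15510 (log2 difference -0.86, adjusted p = 5.94e-19), with differences from -0.89 to -0.82 at the single doses. DNAJA1 averaged 553 ± 58.2 in GM15036 and 939 ± 139.5 in GM15510 on 200881_s_at (-0.75, 3.45e-18), and CCT4 697 ± 118 in GM15036 and 1109.9 ± 95.8 in GM15510 (-0.69, 3.56e-16). DNAJC6, the auxilin that uncoats clathrin vesicles, was dim and averaged 11 ± 4.44 in GM15036 and 27.8 ± 4.23 in GM15510 (-1.14, 4.83e-08).

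For several genes the probe sets disagreed on the size of the line difference. HSP90AA1 averaged 586 ± 63.5 in GM15036 and 1208 ± 124 in GM15510 on 211968_s_at (-1.04, adjusted p = 2.39e-19), with differences of -0.26, -0.20 and -0.10 on 210211_s_at, 211969_at and 214328_s_at, the last of which did not pass (0.133). HSPD1 averaged 328 ± 31.2 in GM15036 and 681 ± 105 in GM15510 on 200806_s_at (-1.04, 1.19e-18), while 200807_s_at differed by -0.12 (0.0427). HSPA13 differed by -0.76 on 202558_s_at (1.92e-10) and by -0.09 on 202557_at (0.233). The direction itself was split for HSPA4, at -0.52, -0.49 and 0.65 on 3 probe sets that passed, and for CCT6A, at 0.34 on 201326_at and -0.38 on 201327_s_at.

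Of the members higher in GM15036, DNAJB2, a neuronal J protein, averaged 30.3 ± 12.1 in GM15036 and 14.3 ± 5.20 in GM15510 (0.90, adjusted p = 8.26e-05), and DNAJB5 22.1 ± 6.10 in GM15036 and 11.2 ± 6.21 in GM15510 (0.86, 7.60e-05). TRAP1 averaged 182 ± 53.2 in GM15036 and 143 ± 13.7 in GM15510 (0.30, 0.00245) and HSF1 12.8 ± 4.19 in GM15036 and 7.83 ± 4.96 in GM15510 (0.57, 0.0207). The 8 largest differences with one sign at all doses, which were those of HSPH1, DNAJC6, HSP90AA1, HSPD1, DNAJB2, DNAJB5, PTGES3 and HSPA13, passed under every alternative that tested them and without each array. Scaling moved the split of calls, from 11 higher and 32 lower to 5 and 42 with centring after scaling and to 3 and 40 with median centring. Splits over all tested probe sets under these centrings are not given here.

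**Figure D4:**
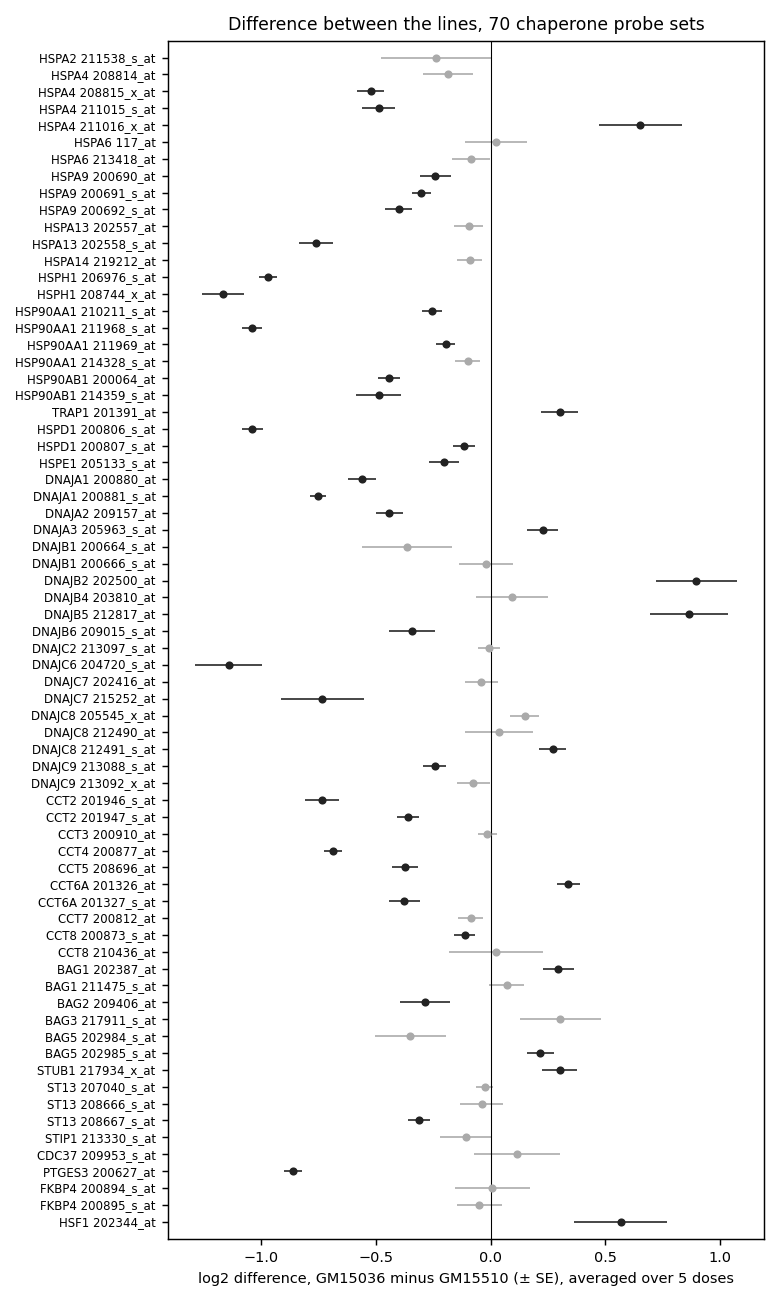
Log2 difference between the lines, GM15036 minus GM15510, averaged over the 5 doses (horizontal axis, points with SE), for the 70 tested chaperone probe sets in rows by role; black points pass an adjusted p of 0.05 and grey points do not. The points of HSPH1, PTGES3, DNAJA1 and CCT4 lie to the left, as lower signal in GM15036, and those of DNAJB2 and DNAJB5 to the right.

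The dose pattern differed between the lines for 25 of the 70 member probe sets by the interaction F test, or 35.7%, beside 20.5 percent of all. Counted in tested probe sets, these were 7 of 19 for J proteins, 6 of 10 for CCT subunits and 4 of 15 for HSP70 and HSP110. They were 4 of 10 for BAG proteins and other HSP70 helpers, 3 of 7 for HSP90, and 1 of 3 for HSP60 and HSP10. The smallest p values were those of DNAJC2, CCT7, CCT2 and DNAJA1, whose arrays are given above; DNAJA1 200881_s_at had an adjusted p of 2.13e-04. With brightness as a covariate 14 probe sets passed, and with median centring 48. Shares of all tested probe sets under these settings are not given here, so these counts do not single out the chaperones.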

How the data were processed

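The deposited values were MAS5 signal intensities on a linear scale, 1 per probe set and array, made by the authors with MAS5 per the submitters' processing notes; the version and scaling target are not given in the sources used here. Their trimmed means (2 to 98 percent) differed 7.91-fold between arrays, so each of the 30 arrays was scaled to the mean of these, 50.9. Control probe sets were removed, log2(signal + 4) was taken, and the 60 percent of probe sets with the highest mean were kept. The 10 groups of line and dose were fitted together with limma 3.58.1 in R 4.3.3 (lmFit, eBayes with a trend, 20 residual and 12.3 prior degrees of freedom), without a replicate block. P-values were two-sided and adjusted by Benjamini-Hochberg over all 13331 probe sets, with 0.05 as threshold, and the F tests covered the 5 doses of a line or the interaction of line and dose. The procedure was tested on simulated data. The number of arrays limits the precision, and no detection calls were used.

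Platform annotation gave 19071 probe sets a single symbol, 1043 several and 2169 none, and 19059 of the first were matched by gene ID to the RefSeq table of GRCh38.p14. Array values were given for the probe sets with the 8 smallest p of the F test in each line and the 4 smallest of the interaction, and other members past a threshold by means or ranges, along with a fixed set of well-known members. For the line difference the 8 largest with the same sign at all doses were named. In gene counts the probe set with the highest mean stood for the gene, with the less specific _s_at and _x_at sets used only for lack of others. The members and lists were chosen with earlier results of these data known. Alternatives were 3 other scalings, other pseudocounts and filters, brightness as a covariate, leaving out the 5 dimmest arrays or each array in turn, and a replicate block. Protein sequences were not used here.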

Additional observations from a re-analysis of the deposited data

Results flagged for a closer look

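For 25 member probe sets the change with dose differed between GM15036 and GM15510 by the interaction F test of limma, and each is given here with its adjusted p. Among J proteins these were DNAJC2 (1.00e-06), DNAJA1 on 200881_s_at (2.13e-04) and 200880_at (5.90e-04), DNAJA2 (2.95e-04), DNAJC8 on 212491_s_at (0.00659) and 205545_x_at (0.0307), and DNAJC9 on 213088_s_at (0.0388). Among CCT subunits they were CCT7 (8.64e-06), CCT2 on 201947_s_at (6.16e-05), CCT4 (0.0012), CCT3 (0.00246), CCT8 on 200873_s_at (0.0273) and CCT5 (0.0309). The HSP90 probe sets were HSP90AB1 200064_at (3.56e-04) and 214359_s_at (0.0133) and HSP90AA1 210211_s_at (8.94e-04). The HSP70 probe sets were HSPA13 202557_at (0.00803) and 202558_s_at (0.0134), HSPA9 200690_at (0.0103) and HSPA6 213418_at (0.0194). The HSP70 helpers were ST13 207040_s_at (2.51e-04) and 208666_s_at (0.0148), and BAG1 211475_s_at (0.00916) and 202387_at (0.0490). HSPD1 200806_s_at had 0.0463. Brightness moved differently with dose in the lines, with its lowest mean at 10 cGy in GM15036 (22.1 ± 10.4), whereas GM15510 had it at 2.5 cGy (18.7 ± 4.48; SD, n = 3 each). With brightness as a covariate the test passed for 14 member probe sets, and the share of all tested probe sets under that fit is not given here. Groups of 3 arrays are too small for the test for single outlying arrays.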

How the results depend on the processing

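Counts are of the 70 member probe sets that passed, each set against the count with trimmed-mean scaling. Shares of all tested probe sets under the same settings are not given here, so the counts do not single out the chaperones. Quantile normalization gave 1 at 7.5 cGy in GM15510. With centring after scaling, GM15036 had 1 at 7.5 cGy and 27 at 10 cGy. GM15510 had 22 at 2.5 cGy and 1 at 7.5 cGy. Median centring gave 34 by the F test and 40 at 10 cGy in GM15036, 53 by the F test and 46, 19, 0 and 0 at 2.5, 5, 7.5 and 10 cGy in GM15510, and 48 by the interaction test. Without a filter 1 passed at 7.5 cGy in each line. Brightness as a covariate gave 0 and 6 at 7.5 and 10 cGy in GM15036, 4 at 2.5 cGy and 4 at 5 cGy in GM15510, and 14 by the interaction test. Without the 5 dimmest arrays, 10 cGy in GM15036 and 2.5 cGy in GM15510 were left with 1 array each, so counts at those doses are not given. The cause of these moves was not tested.

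Under median centring 8 changes turned in sign. At 10 cGy in GM15036 these were HSPA6 213418_at (-0.0042) and DNAJC2 (-0.0075). At 2.5 cGy in GM15510 they were HSP90AA1 210211_s_at (-0.10) and 214328_s_at (-0.14), HSPD1 200806_s_at (-0.22), DNAJC9 213088_s_at (-0.31) and CCT2 201947_s_at (-0.44), and at 5 cGy HSP90AA1 210211_s_at (-0.047). Of the 51 calls, 8 passed under every alternative and without every array.

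Leaving out each array in turn gave 14 to 20 by the F test in GM15036, 0 to 0 at 2.5 and at 5 cGy, 0 to 4 at 7.5 cGy and 10 to 17 at 10 cGy. In GM15510 it gave 23 to 29 by the F test, 7 to 14 at 2.5 cGy, 4 to 10 at 5 cGy, 0 to 6 at 7.5 cGy and 3 to 8 at 10 cGy. The interaction had 20 to 27 calls and the line difference 40 to 45. At 7.5 cGy in GM15036 the count was 1 without 1 cGy array a or 7.5 cGy array b, and 0 without 1 cGy array b or 7.5 cGy array c. At 10 cGy it was 10 without 1 cGy array a or b. In GM15510 it was 7 at 2.5 cGy without 1 cGy array 2, 4 at 5 cGy without 1 cGy array 1 or 3 and 5 without 5 cGy array 2b. At 7.5 cGy it was 0 without 1 cGy array 1 or 3 or 7.5 cGy array 1 or 3, and 2 without 1 cGy array 2. At 10 cGy it was 3 without 10 cGy array 1.

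The replicate labels a, b, c and 1, 2, 3 were tried as a block. Same-label arrays had correlations of their deviations from -0.0552 to 0.0409 in GM15036 and -0.0616 to 0.0970 in GM15510, and 0 of 30 pairs in each line exceeded 0.1, so the labels were not read as pairs. With the replicate block 17 passed by the F test in GM15036, 3 at 7.5 cGy and 14 at 10 cGy; in GM15510 28 passed by the F test and 10, 9, 3 and 7 at 2.5, 5, 7.5 and 10 cGy; 24 passed by the interaction and 42 by the line difference. The block kept 45 of the 51 calls. The 6 not kept were HSPA6 117_at (adjusted p = 0.0597) and HSP90AA1 210211_s_at (0.0529) at 10 cGy in GM15036, and in GM15510 DNAJA2 (0.0542) and ST13 208666_s_at (0.0623) at 2.5 cGy, CCT5 (0.0633) at 5 cGy and HSP90AA1 210211_s_at (0.0547) at 7.5 cGy.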
